A study of Mus musculus with 6 samples.

Results

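The genes described here are 10 genes known for their use in the endothelial lineage, the cells that line blood vessels: Pecam1, Cdh5, Kdr, Flt1, Tek, Tie1, Emcn, Esam, Egfl7 and Eng. They were chosen by name as genes of the lineage, with earlier results of these data known, and all 10 were found among the 55487 genes of the deposited table. They were measured in cultures of MEFs, fibroblast cultures taken directly from wild-type mouse embryos, and not in sorted endothelial cells. Passage 6 (P6) cells, labelled senescent, gave 1 library each after α-amyrin, β-amyrin and vehicle, and passage 1 (P1) cells, labelled non-senescent, gave the same 3. Both amyrins were given at 20 µM for 3 days, and all cultures had the same serum-containing medium. α-Amyrin and β-amyrin are isomeric plant triterpene alcohols that differ in where a methyl group sits on the last ring. The labels do not say which embryos were used, whether isolates were pooled, or whether P6 descended from the P1 isolate, so passage and isolate cannot be told apart.

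Endothelial cells read vascular growth cues through receptor tyrosine kinases. Kdr (VEGFR2) is the main signalling receptor of VEGF-A, and Flt1 (VEGFR1) binds VEGF-A, VEGF-B and PlGF and is also made as a soluble decoy. Tek (Tie2) is the receptor of the angiopoietins and Tie1 its partner, and Eng (endoglin) is a co-receptor of TGF-β family ligands such as BMP9. Cdh5 (VE-cadherin), Pecam1 (CD31) and Esam hold endothelial cells to each other at their junctions, Emcn (endomucin) is a surface sialomucin, and Egfl7 is a secreted protein whose gene hosts miR-126. Several of these genes are also known outside endothelium: Eng in mesenchymal stromal cells, Pecam1 and Esam in platelets, Pecam1 in leukocytes, and Tek in some perivascular and haematopoietic cells.

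The 4 promoter windows below are shown because Flt1, Kdr and Tek were the receptors with lower counts at P6, while Tie1, from the same family as Tek, was at or near 0 in every library. Each runs from 250 bases before to 50 bases after the annotated start, 5′ to 3′, from RefSeq on GRCm38.p6, the assembly of mm10. Capitals mark the letters GGAA or, for the other strand, TTCC, the core that ETS family factors of endothelial cells are known to bind.
Flt1, chr5:147725962-147726261, minus strand: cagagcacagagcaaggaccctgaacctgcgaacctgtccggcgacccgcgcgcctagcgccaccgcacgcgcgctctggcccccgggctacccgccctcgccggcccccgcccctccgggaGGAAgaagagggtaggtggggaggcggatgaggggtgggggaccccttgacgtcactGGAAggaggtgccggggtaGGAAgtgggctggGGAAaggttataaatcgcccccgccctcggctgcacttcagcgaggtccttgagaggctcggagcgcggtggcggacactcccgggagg
Kdr, chr5:75978406-75978705, minus strand: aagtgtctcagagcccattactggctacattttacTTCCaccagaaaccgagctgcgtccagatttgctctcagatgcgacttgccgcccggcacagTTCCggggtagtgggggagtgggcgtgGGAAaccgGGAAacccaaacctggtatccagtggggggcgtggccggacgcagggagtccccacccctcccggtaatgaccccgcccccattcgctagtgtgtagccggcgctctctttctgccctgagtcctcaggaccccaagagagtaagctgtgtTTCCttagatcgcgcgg
Tek, chr4:94739039-94739338, plus strand: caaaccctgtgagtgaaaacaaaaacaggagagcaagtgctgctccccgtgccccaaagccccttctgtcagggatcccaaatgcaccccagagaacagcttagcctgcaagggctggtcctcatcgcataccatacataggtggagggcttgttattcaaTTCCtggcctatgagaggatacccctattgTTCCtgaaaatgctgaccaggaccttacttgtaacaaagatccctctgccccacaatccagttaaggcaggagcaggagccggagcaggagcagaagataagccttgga
Tie1, chr4:118489800-118490099, minus strand: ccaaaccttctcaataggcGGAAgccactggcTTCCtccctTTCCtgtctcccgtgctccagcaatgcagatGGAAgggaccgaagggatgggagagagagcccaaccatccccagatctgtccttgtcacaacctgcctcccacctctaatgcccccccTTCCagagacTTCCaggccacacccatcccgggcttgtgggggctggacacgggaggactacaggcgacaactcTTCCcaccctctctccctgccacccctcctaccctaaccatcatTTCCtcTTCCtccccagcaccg
The GGAA core occurred 4 times in the Flt1 window, 5 times in the Kdr window, 2 times in the Tek window and 9 times in the Tie1 window. Over 32851 promoter windows of the same length from 27025 mouse genes the median was 3 and 96.0% held at least 1, so a match is common. The 90th percentile was 6, which the Tie1 window exceeded. The longer form AGGAAG, searched on both strands and overlapping the core, occurred 2 times each for Flt1 and Tie1 and was not among the letters of the Kdr and Tek windows; 35.4% of all windows hold it. The GC box GGGCGG occurred 3 times for Flt1 and 2 times for Kdr, and 35.7% of all windows hold it. The TATA box letters TATAAA occurred 1 time in the Flt1 window, as in 13.6% of all windows, and the palindrome TGACGTCA (the cAMP response element) also 1 time there, as in 1.79% of all windows. The windows differed in composition. Bases G and C made up 70.7% of the Flt1 window, 60.7% of Kdr, 60.3% of Tie1 and 52% of Tek, against a median of 52.7% over all windows. CpG pairs numbered 29 for Flt1, 19 for Kdr, 7 for Tie1 and 3 for Tek, against a median of 7. Of the 10 genes, 7 had a window in the table, and Egfl7 had 3. Of the windows not printed, the one of Eng held the core 4 times and that of Emcn 6 times. Pecam1, Cdh5 and Esam had no window in the table. These matches describe letters and say nothing of binding.

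Total counts ran from 18798418 to 25440191 in the P6 libraries and from 25077506 to 28752332 in the P1 libraries. Levels are given as CPM, counts scaled by TMM to a common library size, and, where genes are compared with each other, as the deposited FPKM, which is scaled for gene length. With 1 library per condition, the 3 libraries of a passage differ in treatment and are not labelled as replicates. A mean ± SD over a passage therefore includes any treatment difference, and the p-values below measure only the spread among these 6 libraries.

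Levels split the 10 genes into a measured and a nearly absent set. In P6 the deposited FPKM averaged 6.41 ± 0.910 for Eng, 1.65 ± 0.0517 for Flt1, 0.836 ± 0.244 for Tek, 0.580 ± 0.173 for Kdr and 0.404 ± 0.114 for Egfl7 (SD, n = 3 libraries). In P1 it averaged 9.51 ± 0.470 for Eng, 8.45 ± 0.252 for Flt1, 2.53 ± 0.206 for Kdr, 1.72 ± 0.527 for Tek and 0.489 ± 0.0917 for Egfl7 (SD, n = 3 libraries). Eng thus stood first and Flt1 second at both passages, with ranges that did not overlap their neighbours. Kdr was above Tek in P1 with separate FPKM ranges, whereas in P6 the ranges of Tek and Kdr overlapped, as did those of Kdr and Egfl7. Emcn averaged 0.0877 ± 0.0435 FPKM in P6 and 0.363 ± 0.13 FPKM in P1, where its range overlapped that of Egfl7. In P6 the Emcn range overlapped that of Pecam1, the next gene by mean. Esam, Cdh5 and Pecam1 had at most 0.127 FPKM in every library, and Tie1 was lowest.

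**Figure D1:**
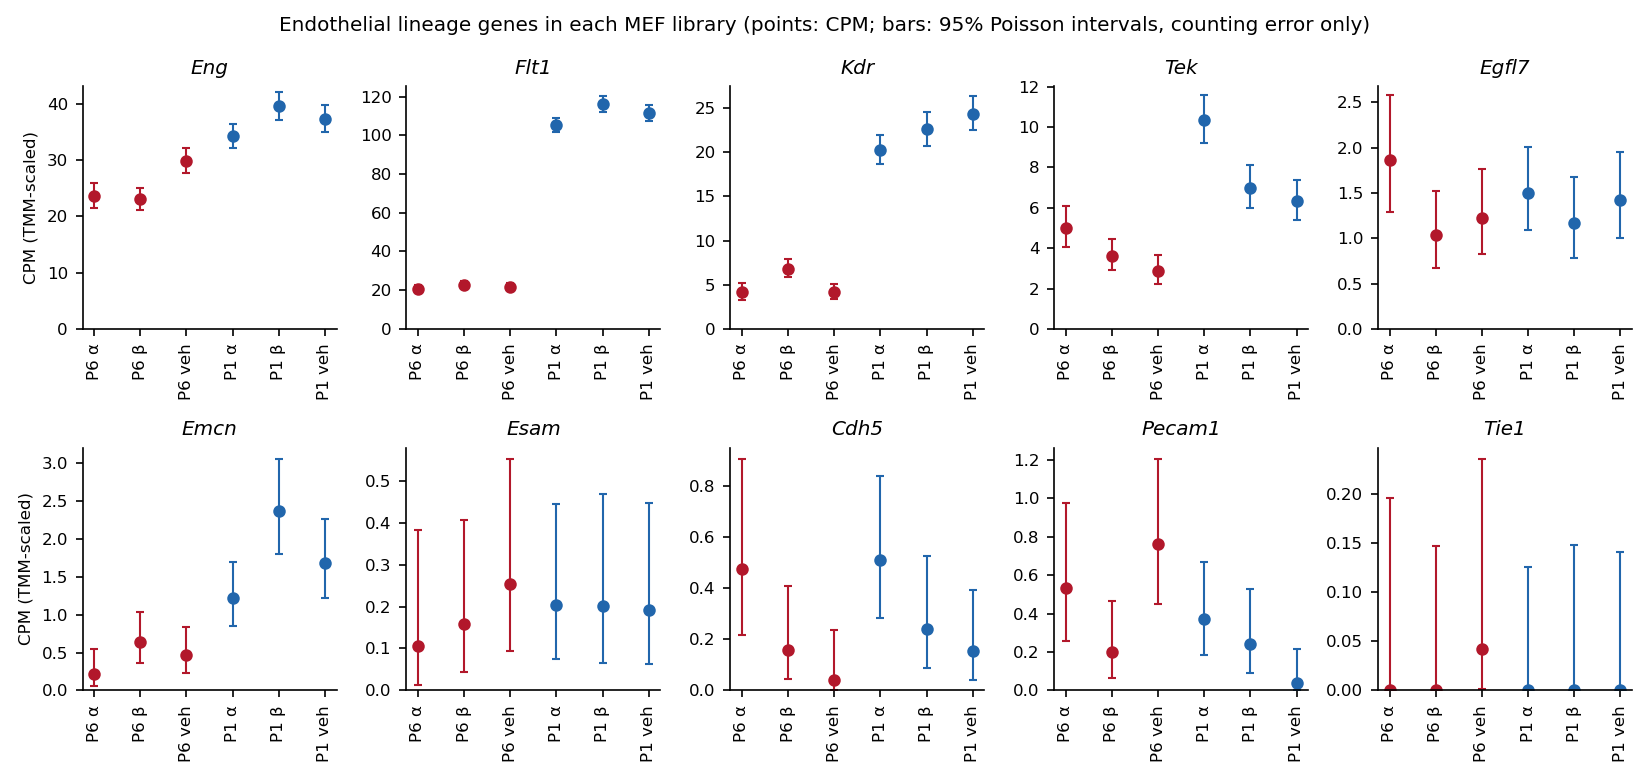
TMM-scaled CPM of each of the 10 genes (vertical axes, each from 0 with its own scale) in the 6 libraries (horizontal axes: P6 in red, then P1 in blue, each with α-amyrin, β-amyrin and vehicle). Points are single libraries and bars are 95% Poisson intervals that cover counting error only. Flt1, Kdr, Tek and Eng have all P6 points below all P1 points, as have 32.2% of all genes tested. Emcn does so too, but entered the test through P1 alone, and the other 5 genes overlap.

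The junction genes by which endothelial cells are usually defined were close to the limit of counting. Cdh5 (ENSMUSG00000031871, mm10 chromosome 8, 104101625 to 104144511, plus strand) had 9, 4 and 1 counts in the P6 α-amyrin, β-amyrin and vehicle libraries, against 15, 6 and 4 counts in the P1 libraries in the same order. Pecam1 (ENSMUSG00000020717, chromosome 11, 106654217 to 106750628, minus strand) had 10, 5 and 18 counts in the P6 libraries, against 11, 6 and 1 counts in the P1 libraries. Esam (ENSMUSG00000001946, chromosome 9, 37528078 to 37538319, plus strand) had 2, 4 and 6 counts in the P6 libraries, against 6, 5 and 5 counts in the P1 libraries. All 3 genes thus had at most 18 counts in any library, and their P6 and P1 ranges overlapped. Tie1 (ENSMUSG00000033191, chromosome 4, 118471191 to 118490061, minus strand) had 1 count in all 6 libraries together, in P6 vehicle (95% Poisson interval of the total 0.0253 to 5.57 counts). For the 3 P1 libraries together, 0 counts allow up to 0.0373 CPM of Tie1, taking 3 counts as the limit and counting error only. These 4 genes did not pass the low-count filter and were not tested. Without the filter, the edgeR quasi-likelihood log2 fold change between P6 and P1 was 1.15 ± 0.62 for Pecam1 (SE, edgeR adjusted p = 0.181), -0.53 ± 0.68 for Cdh5 (edgeR adjusted p = 0.682) and -0.22 ± 0.81 for Esam (edgeR adjusted p = 0.882). Pecam1 exceeded counting error in the vehicle pair, where 18 counts in P6 against 1 count in P1 gave a ratio of 19.9 (exact 95% interval 3.13 to 827), and not in the α-amyrin pair (ratio 1.42) or the β-amyrin pair (ratio 0.825). No pair of Cdh5 or Esam did so between P6 and P1. The cultures thus had counts of the receptor genes Flt1, Kdr, Tek and Eng with hardly any of the junction genes Cdh5, Pecam1 and Esam. The genes are named singly below.

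The passage comparison asked how senescent-labelled cells differ from early cells. Flt1, Kdr, Emcn, Tek and Eng were lower in P6 than in P1, and Egfl7 was not called. Of the 10 genes, Flt1, Kdr, Tek and Eng fell, Emcn fell but entered the test through P1 alone, 0 rose, 1 was tested without a call and 4 were not tested (edgeR quasi-likelihood test with treatment as a term, Benjamini-Hochberg adjusted p below 0.05 over 16962 genes). Among all genes tested, 29.1% fell and 30% rose, so a fall in itself was common. A fall of at least 2-fold was called for 6.59% of all genes and for Flt1, Kdr and Tek here, leaving out Emcn. In a bulk culture, fewer cells of a type and less RNA per cell cannot be told apart.

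Among the VEGF receptors, Flt1 (ENSMUSG00000029648, chromosome 5, 147561604 to 147726011, minus strand) had 20.5, 22.7 and 21.7 CPM in the P6 α-amyrin, β-amyrin and vehicle libraries, against 105, 116 and 111 CPM in the P1 libraries. The groups did not overlap, and within a passage the 3 libraries differed little. Flt1 fell by 2.36 ± 0.05 on the log2 scale (SE, 95% interval -2.48 to -2.24, edgeR adjusted p = 9.57e-07), which is 5.13-fold. The P6 over P1 ratio was nearly the same in each treatment, at 0.194 with α-amyrin, 0.196 with β-amyrin and 0.195 with vehicle. Gene-level counts do not separate the membrane form of Flt1 from its soluble form. Kdr (ENSMUSG00000062960, chromosome 5, 75932827 to 75978458, minus strand) had 4.19, 6.80 and 4.15 CPM in the P6 libraries, against 20.3, 22.6 and 24.4 CPM in the P1 libraries. The groups did not overlap, and the P6 β-amyrin library was the highest of its passage. Kdr fell by 2.16 ± 0.16 on the log2 scale (SE, 95% interval -2.53 to -1.78, edgeR adjusted p = 4.84e-05), which is 4.47-fold. Its P6 over P1 ratio was 0.207 with α-amyrin, 0.302 with β-amyrin and 0.170 with vehicle.

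Tek, the angiopoietin receptor (ENSMUSG00000006386, chromosome 4, 94739289 to 94874976, plus strand), had 4.99, 3.62 and 2.88 CPM in the P6 α-amyrin, β-amyrin and vehicle libraries, against 10.3, 7.0 and 6.33 CPM in the P1 libraries. The groups did not overlap, and the α-amyrin library was the highest at both passages. Tek fell by 1.04 ± 0.12 on the log2 scale (SE, 95% interval -1.32 to -0.76, edgeR adjusted p = 0.000311), which is 2.06-fold. The co-receptor Eng (ENSMUSG00000026814, chromosome 2, 32646595 to 32682669, plus strand) had 23.5, 23.0 and 29.8 CPM in the P6 libraries, against 34.3, 39.5 and 37.3 CPM in the P1 libraries. The groups stood apart by less than in Flt1 or Kdr, and P6 vehicle was the nearest to P1. Eng fell by 0.55 ± 0.09 on the log2 scale (SE, 95% interval -0.77 to -0.33, edgeR adjusted p = 0.00201), which is 1.46-fold. Fpgs lies on the opposite strand and shares 61 bases with Eng; Fpgs had 288 to 811 counts per library, and the sources used here do not give whether counting used strand.

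Emcn (ENSMUSG00000054690, chromosome 3, 137341067 to 137432185, plus strand) had 4, 16 and 11 counts in the P6 α-amyrin, β-amyrin and vehicle libraries, or 0.212, 0.637 and 0.465 CPM, against 36, 59 and 44 counts in the P1 libraries, or 1.22, 2.37 and 1.69 CPM. The groups did not overlap, and β-amyrin gave the highest count at both passages. Emcn fell by 2.0 ± 0.28 on the log2 scale (SE, 95% interval -2.66 to -1.33, edgeR adjusted p = 0.00084). It passed the filter in all 3 P1 libraries and in 2 P6 libraries, so it entered the test through the passage where it was high, and its call is no support for a common fall. Without the filter its log2 fold change was -2.01 (edgeR adjusted p = 2.04e-06). Egfl7 (ENSMUSG00000026921, chromosome 2, 26580014 to 26593120, plus strand) had 1.86, 1.03 and 1.23 CPM in the P6 libraries, against 1.5, 1.17 and 1.42 CPM in the P1 libraries. The groups overlapped, and the log2 fold change of -0.01 ± 0.24 (SE, 95% interval -0.57 to 0.55) was not called (edgeR adjusted p = 0.98). The neighbour Agpat2 shares 64 bases with Egfl7 on the opposite strand and had 359 to 493 counts per library, and its part in the Egfl7 count was not tested.

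**Figure D2:**
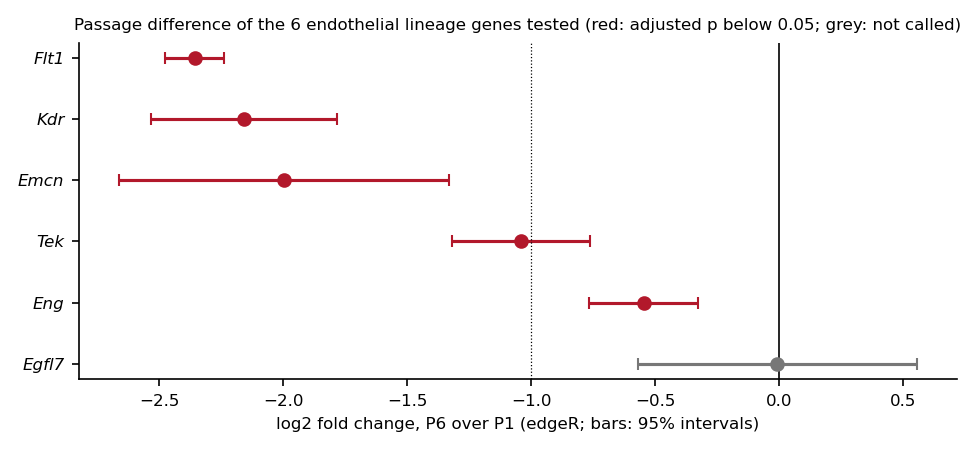
Log2 fold change of P6 over P1 (horizontal axis) for the 6 endothelial lineage genes that passed the low-count filter, from the edgeR fit over all 6 libraries, with 95% intervals as bars; the solid line marks 0 and the dotted line a 2-fold fall. Flt1, at -2.36, has the narrowest interval, Emcn, at -2.0, the widest of the called genes, and the interval of Egfl7 spans 0.

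Pair by pair, without a replicate check, the passage difference was at least 2-fold with at least 5 CPM in 1 library for Flt1 and Kdr in each of the 3 treatments and for Tek with α-amyrin and with vehicle. In the β-amyrin pair Tek had a ratio of 0.518, just short of 2-fold. The same size rule held, in the lower direction, for 3.97% of all genes with α-amyrin, 3.87% with β-amyrin and 3.84% with vehicle. Flt1, Kdr, Tek and Eng had P6 ranges wholly under their P1 ranges, as had 32.2% of all genes tested; so had Emcn, with the limit given above.

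Among other genes of endothelial cells, both directions were seen at about the shares of all genes. Of 26 further surface and effector genes, 13 were tested: 5 rose, 3 fell and 5 were not called, where 30% of all genes rose and 29.1% fell, with a median log2 fold change of 0.05, and all genes had a median of 0.00. Ptprb, the phosphatase VE-PTP that acts on Tek and VE-cadherin, had 3.24, 4.42 and 5.16 CPM in the P6 α-amyrin, β-amyrin and vehicle libraries, against 14.2, 22.0 and 20.5 CPM in the P1 libraries. Every P6 library lay below every P1 library, and Ptprb fell by 2.14 ± 0.10 (SE, log2 scale, edgeR adjusted p = 1.17e-05). Ecscr, an endothelial surface regulator of chemotaxis, fell by 2.03 ± 0.13 (edgeR adjusted p = 3.16e-05), at 2.44, 2.23 and 2.03 CPM in P6 and 8.73, 9.57 and 9.01 CPM in P1. Cd93, a C-type lectin receptor of endothelial and myeloid cells, rose by 3.09 ± 0.26 (edgeR adjusted p = 8.88e-05), at 60.4, 62.5 and 46.7 CPM in P6 and 7.71, 3.62 and 8.71 CPM in P1. Cldn5, the claudin of endothelial tight junctions, and Gpihbp1, the capillary anchor of lipoprotein lipase, had 0 counts in every library. Plvap, Robo4, Mmrn2, Icam2, Nos3, Aplnr, Lyve1, Stab2, Adgrl4, Dll4 and Gja4 did not pass the filter. The remaining called genes were named after their values were seen. Notch4 rose by 2.26 ± 0.25, Selp rose by 1.82 ± 0.21 and S1pr1 rose by 0.71 ± 0.10. Vwf had 4.62, 18.1 and 4.70 CPM in the P6 α-amyrin, β-amyrin and vehicle libraries, against 1.12, 0.241 and 0.844 CPM in the P1 libraries, and rose by 3.36 ± 0.60. The value for Vwf leaned on the β-amyrin pair: it was 2.22 without P6 β-amyrin, 2.23 without P1 β-amyrin, 4.15 without P6 α-amyrin and 4.17 without P1 α-amyrin, called in each. Sele fell by 1.21 ± 0.34. It was not called when the P1 or the P6 vehicle library (-1.13 each) or the P1 or the P6 α-amyrin library (-1.21 each) was left out, nor by DESeq2. Sele reached the filter level in no P6 library (0.239 to 0.338 CPM), and Vwf did not reach it in P1 β-amyrin.

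Of 17 transcription factors known in endothelial cells, 14 were tested: 8 rose, 4 fell and 2 were not called, with a median of 0.44, where 30% of all genes rose and 29.1% fell. Hhex, a homeobox factor of endothelial and haematopoietic progenitors, rose by 3.20 ± 0.18 (edgeR adjusted p = 1.92e-05), at 14.1, 8.87 and 11.9 CPM in the P6 α-amyrin, β-amyrin and vehicle libraries and 1.73, 0.603 and 1.5 CPM in the P1 libraries. Mef2c, a MADS-box factor, rose by 1.41 ± 0.08 (edgeR adjusted p = 2.19e-05). Ets1, a founding member of the ETS family, fell by 1.14 ± 0.07 (edgeR adjusted p = 3.1e-05), at 43.3, 46.0 and 39.0 CPM in P6 and 84.1, 101 and 97.4 CPM in P1. Erg, an ETS factor of endothelial identity and named after its values were seen, had 0.531, 0.995 and 1.27 CPM in P6 and 8.36, 5.27 and 7.10 CPM in P1, and fell by 2.83 ± 0.28 (edgeR adjusted p = 0.000161). Tal1 and Lmo2, factors shared with blood cells and also named after their values were seen, rose by 4.59 ± 0.38 and 3.64 ± 0.36. Both lay below the filter level in P1 β-amyrin (0 and 0.241 CPM), as did Sox7 in P1 vehicle and P1 α-amyrin (0.268 and 0.306 CPM). These genes passed the filter through P6, where they were high, and are among the 8 that rose. Etv2, which acts early in the lineage, and Sox17, a factor of arterial endothelium, had 0 counts in every library, and Sox18 did not pass the filter.

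Ligands and partners of the 10 genes were called in both directions, near the shares of all genes. Of 21 listed, 19 were tested: 7 rose, 7 fell and 5 were not called, with a median of -0.01, where 30% of all genes rose and 29.1% fell. The VEGF co-receptors Nrp1 and Nrp2 rose by 0.79 ± 0.04 (edgeR adjusted p = 1.48e-05) and 0.78 ± 0.07 (edgeR adjusted p = 9.99e-05), with 343, 350 and 358 CPM of Nrp1 in the P6 α-amyrin, β-amyrin and vehicle libraries and 196, 205 and 208 CPM in the P1 libraries. Vegfc, the ligand of the lymphatic receptor Flt4, fell by 0.98 ± 0.09 (edgeR adjusted p = 0.000122). Ligands named after their values were seen were Pgf, which encodes PlGF and fell by 2.22 ± 0.24, Vegfa, which fell by 0.60 ± 0.11, and the angiopoietin gene Angpt2, which fell by 1.16 ± 0.14. Of the same families, Angpt4 rose by 0.80 ± 0.15 and Vegfd rose by 0.35 ± 0.12 (edgeR adjusted p = 0.0444). Vegfd was not called when a vehicle library (0.18 without P1, 0.19 without P6) or a β-amyrin library (0.29 without P1 or P6) was left out. Nor was it called by limma on log2(FPKM + 1) (0.32) or log2(FPKM + 0.1) (0.33), or without treatment terms (0.30). Angpt1, the activating ligand of Tek and likewise named afterwards, had a log2 fold change of -0.01 ± 0.11 and was not called. Gdf2 and Bmp10, which encode the ligands of endoglin BMP9 and BMP10, did not pass the filter.

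Markers of other cell types moved with passage in the same libraries, where 30% of all genes tested rose and 29.1% fell. All 16 macrophage markers rose, with a median of 4.09 and a summed level of 3947 to 5558 CPM in P6 and 46.0 to 373 CPM in P1; Csf1r rose by 3.73 ± 0.22, Aif1 by 4.12 ± 0.25 and Itgam by 4.05 ± 0.31. All 7 mesothelial markers fell, with a median of -5.61 and a summed level of 9.48 to 11.2 CPM in P6 and 173 to 219 CPM in P1; Upk3b fell by 5.61 ± 0.09, Lrrn4 fell by 6.76 ± 0.15 and Msln fell by 5.39 ± 0.14. Of 12 mural cell markers, 9 were tested, of which 7 fell and 1 rose (median -0.59, sum 2548 to 3272 CPM in P6 and 3815 to 4595 CPM in P1). Myh11 fell by 1.97 ± 0.08, Mcam fell by 0.79 ± 0.06 and Notch3 rose by 0.97 ± 0.07, while Higd1b and Vtn had 0 counts and Cox4i2 did not pass the filter. Of 9 megakaryocyte and platelet markers, 5 were tested, of which 4 rose (median 1.45, sum 15.8 to 20.8 CPM in P6 and 7.08 to 7.79 CPM in P1). Treml1 rose by 5.89 ± 0.64, Pf4 by 2.65 ± 0.35 and Ppbp by 1.45 ± 0.21. Without P6 vehicle the values of Treml1 and Pf4 were 7.38 and 3.31, and without P1 vehicle 7.35 and 3.28. Treml1 was 59.5-fold higher in P6, in a list summing to at most 20.8 CPM there. Its mean in P1 thus lay under the filter level of 0.396 CPM. It passed the filter through P6, where it was high, and is among the 4 that rose. The platelet receptor genes Gp9, Gp1bb and Gp6 had 0 counts. Of 9 fibroblast markers, 6 fell and 1 rose (median -0.44), while their summed level was higher in P6 (50707 to 56424 CPM) than in P1 (35817 to 43061 CPM). Pdgfra fell by 2.46 ± 0.08, Dcn fell by 1.88 ± 0.10 and Fn1 rose by 1.33 ± 0.06. The part of these cell types in the endothelial lineage results was not tested. For the 10 genes themselves the summed level was 56.4 to 61.3 CPM in P6 and 174 to 189 CPM in P1, and Flt1 made up most of it in P1.

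**Figure D3:**
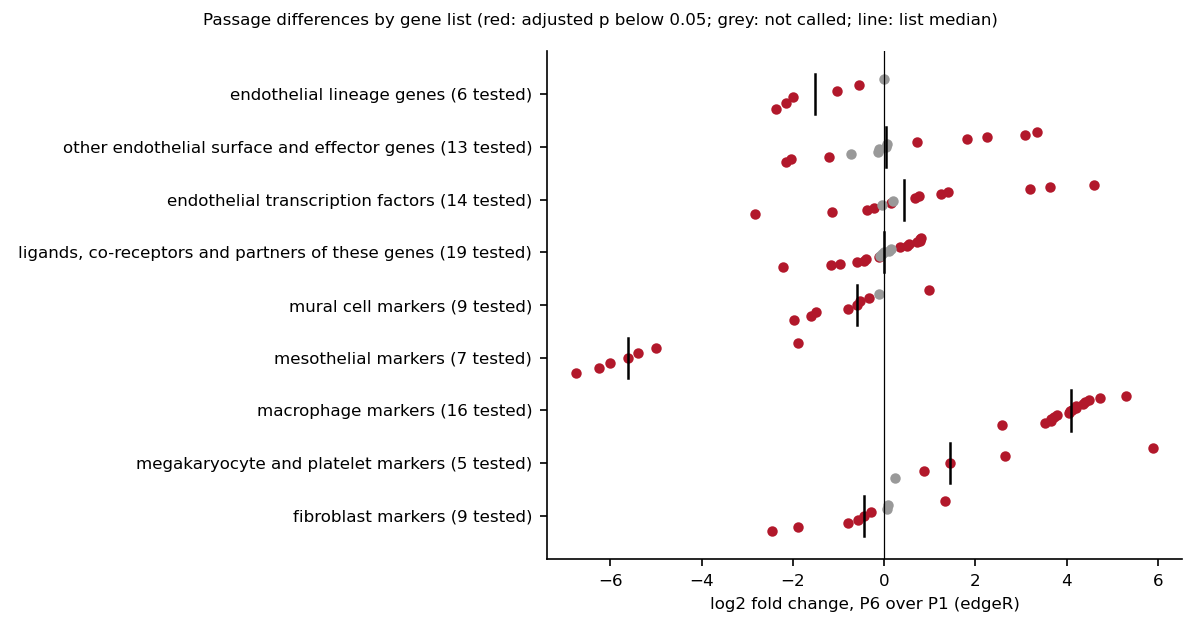
Log2 fold change of P6 over P1 (horizontal axis, edgeR) for every tested gene of the 10 endothelial lineage genes (top row) and of 8 other lists (rows below), red where the adjusted p was below 0.05 and grey where not; the short black line is the list's median. The endothelial lineage genes have a median of -1.52 and the further endothelial lists 0.05 and 0.44, while mesothelial markers lie at -5.61 and macrophage markers at 4.09. The median of -1.52 includes Emcn, which entered the test through P1 alone. The median of 0.05 includes Sele and Vwf, and that of 0.44 includes Tal1, Lmo2 and Sox7. Each of these lay under the filter level in at least 1 library of the passage where it was low.

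The compound comparisons asked how each amyrin changed expression over both passages. None of the 6 tested genes was called for α-amyrin against vehicle, β-amyrin against vehicle or α-amyrin minus β-amyrin. Few genes of any kind were: 0.0295% of all genes for α-amyrin, 0.0059% for β-amyrin and 0.059% for the difference between the compounds. At an unadjusted p below 0.05, edgeR gave 1 of the 6 for α-amyrin and 11.8% of all genes, 0 of the 6 for β-amyrin and 10.3% of all genes, and 3 of the 6 for the difference and 9.21% of all genes. DESeq2 also called none of the 6 in any of the 3 comparisons.

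Tek was the gene with the smallest p with α-amyrin. Its log2 difference from vehicle was 0.74 ± 0.14 (SE, 95% interval 0.40 to 1.08, edgeR adjusted p = 0.164). The count ratio of α-amyrin over vehicle was 1.73 in P6 (exact 95% interval 1.26 to 2.41, counting error only) and 1.63 in P1 (1.35 to 1.99). Both passages thus had more Tek counts with α-amyrin than counting error gives. These ratios restate libraries of the fit, and the share of all genes beyond counting error was not counted. Over 11 alternative settings the log2 difference lay between 0.43 and 0.82 and the adjusted p between 0.00785 and 0.786. It was called without the low-count filter (edgeR adjusted p = 0.00785) and when the P1 or the P6 β-amyrin library was left out, and under no other setting. Leaving out the P1 or the P6 library of a treatment is nearly the same check in this fit. With β-amyrin the ratio over vehicle was 1.26 in P6 (0.909 to 1.75) and 1.11 in P1 (0.888 to 1.38), with a log2 difference of 0.22 ± 0.15 (edgeR adjusted p = 0.64).

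Set against each other at the same dose and time, the 2 isomers, a single pair of compounds, differed in none of the 6 tested endothelial lineage genes past adjustment over all genes. For Tek, α-amyrin minus β-amyrin was 0.52 ± 0.14 on the log2 scale (SE, 95% interval 0.19 to 0.85, edgeR adjusted p = 0.346), with ratios of 1.38 in P6 (1.02 to 1.86) and 1.48 in P1 (1.22 to 1.79). For Emcn it was -1.08 ± 0.33 (95% interval -1.87 to -0.30, edgeR adjusted p = 0.411), on 4 and 16 counts in P6 and 36 and 59 counts in P1. For Flt1 it was -0.14 ± 0.06 (95% interval -0.29 to 0.00, edgeR adjusted p = 0.538). The intervals of the other 3 genes spanned 0: -0.82 to 0.08 for Kdr, -0.11 to 1.28 for Egfl7 and -0.36 to 0.17 for Eng. They leave differences of up to about those sizes undetected, so a like response of these genes to the isomers was not shown.

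Against vehicle, the other 5 genes were not called with either compound over the 2 passages. With α-amyrin the log2 difference was -0.17 ± 0.19 for Kdr, -0.08 ± 0.06 for Flt1, -0.60 ± 0.34 for Emcn, 0.32 ± 0.28 for Egfl7 and -0.23 ± 0.11 for Eng. With β-amyrin it was 0.20 ± 0.19 for Kdr, 0.06 ± 0.06 for Flt1, 0.48 ± 0.31 for Emcn, -0.27 ± 0.30 for Egfl7 and -0.13 ± 0.11 for Eng (SE; edgeR, none called). Both compounds are set against the same vehicle libraries. Beside Tek, single ratios of Kdr, Eng, Flt1, Cdh5 and Pecam1 stood off the vehicle library of their passage by more than counting error. The share of all genes that did so was not counted, so these ratios describe single pairs only. Kdr had a β-amyrin over vehicle ratio of 1.64 in P6 (1.27 to 2.13) and 0.926 in P1 (0.825 to 1.04). Eng had an α-amyrin over vehicle ratio of 0.790 (0.700 to 0.891) and a β-amyrin ratio of 0.772 (0.691 to 0.863) in P6, against 0.919 and 1.06 in P1. Kdr had an α-amyrin over vehicle ratio of 0.833 in P1 (0.744 to 0.933), and Flt1 one of 0.947 (0.900 to 0.996). On 1 to 18 counts a library, Cdh5 had an α-amyrin over vehicle ratio of 11.3 in P6 (1.56 to 495) and 3.32 in P1 (1.06 to 13.8). Pecam1 had a β-amyrin over vehicle ratio of 0.261 in P6 (0.0758 to 0.730) and an α-amyrin ratio of 9.75 in P1 (1.42 to 419). Without the filter, Cdh5 was not called for α-amyrin over both passages (log2 difference 2.27 ± 0.86, edgeR adjusted p = 0.302). Single libraries carry culture-to-culture variation that these intervals leave out. No compound pair moved any of the 10 genes by 2-fold with at least 5 CPM. In P6 that size was passed, in either direction, by 0.254% of all genes for α-amyrin over vehicle, 0.613% for β-amyrin over vehicle and 0.472% for α-amyrin over β-amyrin. In P1 the shares were 0.33%, 0.613% and 0.755% in the same order. None of the tested genes of the 8 other lists was called for a compound. Summed macrophage markers stood at 5558, 3947 and 5502 CPM in the P6 α-amyrin, β-amyrin and vehicle libraries and at 328, 46.0 and 373 CPM in the P1 libraries. They were lowest with β-amyrin at both passages, and their part in the compound differences was not tested.

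**Figure D4:**
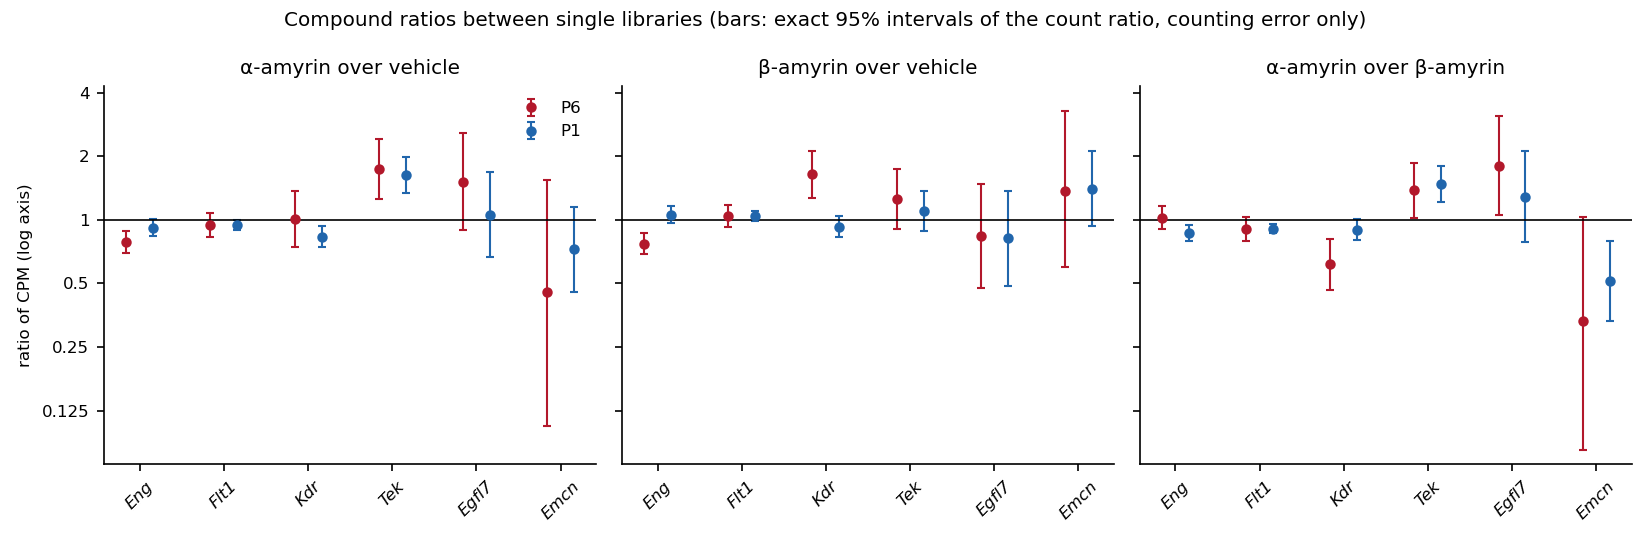
Ratio of CPM between 2 single libraries (vertical axis, log scale) for the 6 tested genes: α-amyrin over vehicle, β-amyrin over vehicle and α-amyrin over β-amyrin, in P6 (red, left of each pair) and P1 (blue). Bars are exact 95% intervals of the count ratio that cover counting error only; Tek lies above 1 with α-amyrin at both passages, at 1.73 and 1.63, and Emcn, on few counts, has the widest bars.

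Whether the response to amyrin differed between passages was tested by pooling both compounds of each passage into 1 amyrin arm of 2 libraries. None of the 6 genes was called, and edgeR called 0 genes of 16962, with 2.66% at an unadjusted p below 0.05 and none of the 6 among them; DESeq2 called 21 genes, none of them among the 6. The P6 minus P1 difference in the amyrin effect was 0.61 ± 0.38 on the log2 scale for Kdr, 0.00 ± 0.15 for Flt1, 0.11 ± 0.46 for Tek, -0.13 ± 1.01 for Emcn, 0.29 ± 0.64 for Egfl7 and -0.34 ± 0.17 for Eng (SE, edgeR adjusted p = 1.00 for each). The SE was smallest for Flt1 and largest for Emcn, the gene with the fewest counts.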

How the data were processed

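Deposited by the authors were unnormalized whole-number counts of reads per gene and FPKM values, which are scaled by the length of each gene and by depth. Tools named in the submitters' processing notes are HISAT2 2.1.0 and featureCounts 1.6.3, on mm10, with FastQC 0.11.7, Trimmomatic 0.38 and SAMtools 1.9; the sources used here do not give their settings. Per the labels' protocols, libraries were made from poly(A) RNA with a strand-keeping kit.

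Here, counts were scaled by TMM and tested with the edgeR 4.0.16 quasi-likelihood test (R 4.3.3) on the 16962 genes that passed filterByExpr (passage as group, 10 counts, or 0.396 CPM, in 3 libraries). Passage and treatment were additive terms over 6 libraries. The 2 residual degrees of freedom come from departures from additivity, so a treatment effect that differs between passages counts as error. A gene that reached the filter level only in the passage where it was high was also tested, in the lists as among all genes. Benjamini-Hochberg adjustment ran over all genes tested, and calls were made below 0.05. The SE of a log2 fold change was derived from its F statistic. Library pairs were described, without a p, by ratios of CPM (log2 ratios with a prior count of 2). Intervals and floors cover counting error only. The procedure was tested on simulated data with known changes. Those data gave all genes the same dispersion and changed few of them, so they do not cover the spread between genes seen here.

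Alternatives were RLE size factors, no low-count filter, DESeq2 1.42.0, limma 3.58.1 on log2(FPKM + 1) and, chosen after seeing the data, on log2(FPKM + 0.1), passage without treatment terms, each library left out, a prior count of 0.5 and ratios of FPKM. The genes and lists were chosen with earlier results of these data known. All 10 genes are named, and of each other list up to 3 called genes with the smallest adjusted p for passage, with list genes at 0 or under the filter, of which 1 is not reported here; genes the text says were named after their values were seen lie outside this rule. Promoter sequences came from RefSeq.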

Additional observations from a re-analysis of the deposited data

How the results depend on the processing

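For P6 against P1, Flt1, Kdr, Tek, Emcn and Eng fell under all 12 alternatives, with log2 fold changes from -2.38 to -1.83 for Flt1, -2.44 to -1.17 for Kdr, -1.10 to -0.56 for Tek, -2.09 to -0.32 for Emcn and -0.68 to -0.44 for Eng. Among these alternatives, leaving out the P1 or the P6 library of a treatment is nearly the same check, because its treatment term takes up the library that remains. The smallest sizes of Flt1, Kdr, Tek and Emcn came with log2(FPKM + 1). Egfl7, not called in any, ran from -0.19 to 0.085 with a library left out. For α-amyrin against vehicle, 1 of the genes (Tek) was called without the low-count filter and 0 to 1 when single libraries were left out; 0 were called under the other settings. Over all genes, calls numbered 464 without the filter, 206 by DESeq2, 0 by limma with either pseudocount and 0 to 367 with a library left out for α-amyrin; 404, 115, 0 and 0 to 317 for β-amyrin, and 3 with RLE; 484, 122, 0 and 0 to 439 for their difference; and for the passage by amyrin term 159 without the filter, 21 by DESeq2 and 0 to 16 with a library left out. The cause was not tested. With a library left out, uncalled values changed direction for Kdr with α-amyrin (-0.35 to 0.22), Kdr with β-amyrin (-0.073 to 0.62), Eng with β-amyrin (-0.32 to 0.031) and Eng between the compounds (-0.25 to 0.099). In the passage by amyrin term they did so for Flt1 (-0.096 to 0.061, and -0.019 without the filter), Tek (-0.16 to 0.41, and -0.029 with log2(FPKM + 1)), Emcn (-1.21 to 0.38) and Egfl7 (-0.17 to 0.66). The Kdr log2 ratio in the vehicle pair was -2.24 from FPKM + 0.1, against -2.53 from counts. The passage by amyrin term could not be fitted without a vehicle library, and a fit on vehicle and 1 compound alone was not run. The passage test matched libraries by treatment, as a term of the fit. No further pairing was possible because the labels give no replicate numbers, with 1 library per condition. Counts of under 20 per library limit what can be said of Emcn in P6 and of Cdh5, Pecam1, Esam and Tie1.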
